A study of Mus musculus with 2 samples.

Results

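The 10 miRNA genes described here are the relatives of the miR-17~92 cluster outside its own locus. They are Mir106b, Mir93 and Mir25 from an intron of Mcm7, Mir106a, Mir18b, Mir20b, Mir19b-2, Mir92-2 and Mir363 from a cluster on the X chromosome, and Mir92b from a locus of its own. They were chosen by gene name, not by level, and all 10 are among the 1973 miRNA gene rows of the count files. The tissue was labelled as facial prominence and described as cranioface, from B6NCrl mouse embryos at embryonic day 14.5. There were 2 biological replicates and no treatment, mutant or other group. Each replicate is labelled as the cranioface of 1 pup, taken on different days, yet the sex is given as pooled male and female, so whether a replicate holds 1 embryo is not settled. Libraries were made from total RNA below 30 bases. All values below therefore describe the content of 1 tissue and the spread between 2 libraries.

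The miR-17~92 cluster and its relatives in the Mcm7 intron act in dividing cells, where they are switched on by Myc and E2F factors. There they repress brakes of the cell cycle and promoters of cell death. In mice miR-17~92 is needed for normal closure of the lip and palate. Mcm7, the host of Mir106b, Mir93 and Mir25, encodes a subunit of the helicase that opens DNA for replication. A miRNA finds its targets mainly through its seed, bases 2 to 8 from the 5′ end, so genes of different clusters that share a seed can share targets. In bulk tissue, fewer cells that make a miRNA and less of it per cell cannot be told apart.

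The mature sequences show how the 10 genes fall into 4 seed groups. They are printed 5′ to 3′ from RefSeq on build GRCm38.p6, with the seed in capitals. For each gene the arm known as its main product is shown, since the counts are per gene and do not separate the arms.
mmu-miR-106b-5p: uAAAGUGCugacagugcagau
mmu-miR-93-5p: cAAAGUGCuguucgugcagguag
mmu-miR-106a-5p: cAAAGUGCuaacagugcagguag
mmu-miR-20b-5p: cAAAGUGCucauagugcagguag
mmu-miR-18b-5p: uAAGGUGCaucuagugcuguuag
mmu-miR-19b-3p: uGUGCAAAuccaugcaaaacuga
mmu-miR-25-3p: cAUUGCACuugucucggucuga
mmu-miR-92a-3p: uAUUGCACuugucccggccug
mmu-miR-363-3p: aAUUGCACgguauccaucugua
mmu-miR-92b-3p: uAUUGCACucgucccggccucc
The seed AAAGUGC, that of miR-17, is carried by Mir106b, Mir93, Mir106a and Mir20b. The seed AUUGCAC, that of miR-92, is carried by Mir25, Mir92-2, Mir363 and Mir92b. Mir18b alone among the 10 genes carries AAGGUGC, and Mir19b-2 alone carries GUGCAAA. The same sequences of the miR-17~92 cluster itself are given for comparison.
mmu-miR-17-5p: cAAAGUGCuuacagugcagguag
mmu-miR-18a-5p: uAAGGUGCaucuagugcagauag
mmu-miR-20a-5p: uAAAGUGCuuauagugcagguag

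Coordinates are those of GENCODE M21 on mm10, and the RefSeq hairpins of all 10 genes have the same ones. The Mcm7-intron cluster spans 498 bases of chromosome 5, from 138165321 to 138165818 on the minus strand, the strand of Mcm7. Mir106b, Mir93 and Mir25 follow each other in that order of transcription, all within the 748 bases of intron 13 of the 14 introns of an annotated Mcm7 transcript. The X-linked cluster spans 875 bases, from 52741693 to 52742567 on the minus strand, in the order Mir106a, Mir18b, Mir20b, Mir19b-2, Mir92-2 and Mir363. Mir106a overlaps the last 5 bases of the noncoding gene Kis2 on the same strand, and the other 5 genes lie downstream of it in no annotated gene. Mir92b (chromosome 3, 89227116 to 89227198, minus strand) lies between genes, 27 bases from Mtx1 on the same strand and 278 bases from Thbs3 on the other.

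Of the 10 genes, Mir93 and Mir106b were far above the other 8. Levels are CPM, the gene-strand count scaled by the library's total over all miRNA genes, which was 6602050 in replicate 2 and 2719153 in replicate 1. At these depths the limit set by a count of 0, taken as 3 counts, corresponds to 0.454 CPM in replicate 2 and 1.10 CPM in replicate 1. The total leaves out multiply placed reads, and with them in it the mean level of Mir92b, for one, was 170.2 CPM in place of 271 CPM. All 10 genes were detected in both libraries and together made up 0.734% of the miRNA counts in replicate 2 and 1.11% in replicate 1. Markers of parts of the tissue were present: Mir140, of cartilage, had 39368 CPM in replicate 2 and 40807 CPM in replicate 1, and Mir203, of epithelium, had 35599 and 21094 CPM. Each is the highest gene of its marker list, and their presence does not test the label of the tissue.

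Mir93, which represses the cell cycle inhibitor Cdkn1a, had 21503 counts in replicate 2, or 3257 CPM, and 13776 counts in replicate 1, or 5066 CPM, a mean of 4162 ± 1279 CPM (SD, n = 2). Mir106b, which has the same seed, had 19643 counts in replicate 2, or 2975 CPM, and 13371 counts in replicate 1, or 4917 CPM, a mean of 3946 ± 1373 CPM. Their means differed by less than the SD of either, but that SD holds the difference between libraries that both genes share. Within each library Mir106b was the lower. Its counts were 0.91 of those of Mir93 in replicate 2 (95% counting interval 0.896 to 0.931) and 0.97 in replicate 1 (0.948 to 0.994). Ranked by mean level among the 717 detected miRNA genes, Mir93 was at place 48 and Mir106b at place 51.

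Mir25, known to repress the death-promoting gene Bcl2l11, had 3261 counts in replicate 2, or 494 CPM, and 1558 counts in replicate 1, or 573 CPM, a mean of 533 ± 55.9 CPM. It lay below its cluster neighbours in both libraries. Mir92b, known in mice as a miRNA of neural progenitors, had 2294 counts in replicate 2, or 347 CPM, and 528 counts in replicate 1, or 194 CPM, a mean of 271 ± 108 CPM at place 155. It was the gene of the 10 with the next level after Mir25.

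In uniquely placed reads the X-linked cluster was low throughout. Mir363, its highest gene, had 638 counts in replicate 2, or 96.6 CPM, and 338 counts in replicate 1, or 124 CPM, a mean of 110 ± 19.6 CPM. Mir106a had 419 counts in replicate 2, or 63.5 CPM, and 242 counts in replicate 1, or 89.0 CPM. Mir20b had 49.8 and 77.2 CPM (329 and 210 counts) in replicates 2 and 1. The means of Mir106a and Mir20b, 76.2 ± 18.1 and 63.5 ± 19.4 CPM, differed by less than the SD of either. That SD holds the difference between libraries that both genes share. In each library Mir106a was the higher. Their counting intervals were separate in replicate 2 (57.7 to 69.8 CPM against 44.7 to 55.5 CPM). They overlapped in replicate 1 (78.5 to 100.9 CPM against 67.5 to 88.4 CPM).

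Mir92-2 had 329 counts in replicate 2, or 49.8 CPM, and 157 counts in replicate 1, or 57.7 CPM. Mir18b had 6.97 and 12.5 CPM (46 and 34 counts) in replicates 2 and 1, and Mir19b-2 had 2.12 and 1.10 CPM (14 and 3 counts). Mir19b-2 in replicate 1 is thus at the floor that a count of 0 allows. Both libraries ranked the 10 genes in the same order, Mir93, Mir106b, Mir25, Mir92b, Mir363, Mir106a, Mir20b, Mir92-2, Mir18b and Mir19b-2, except that Mir20b and Mir92-2 tied in replicate 2. Adapters join some small RNAs better than others, and the part of that in this order was not tested. Counts of Mir92-2 and Mir19b-2 leave out their multiply placed reads, so their places in the order hold for uniquely placed reads alone.

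**Figure D1:**
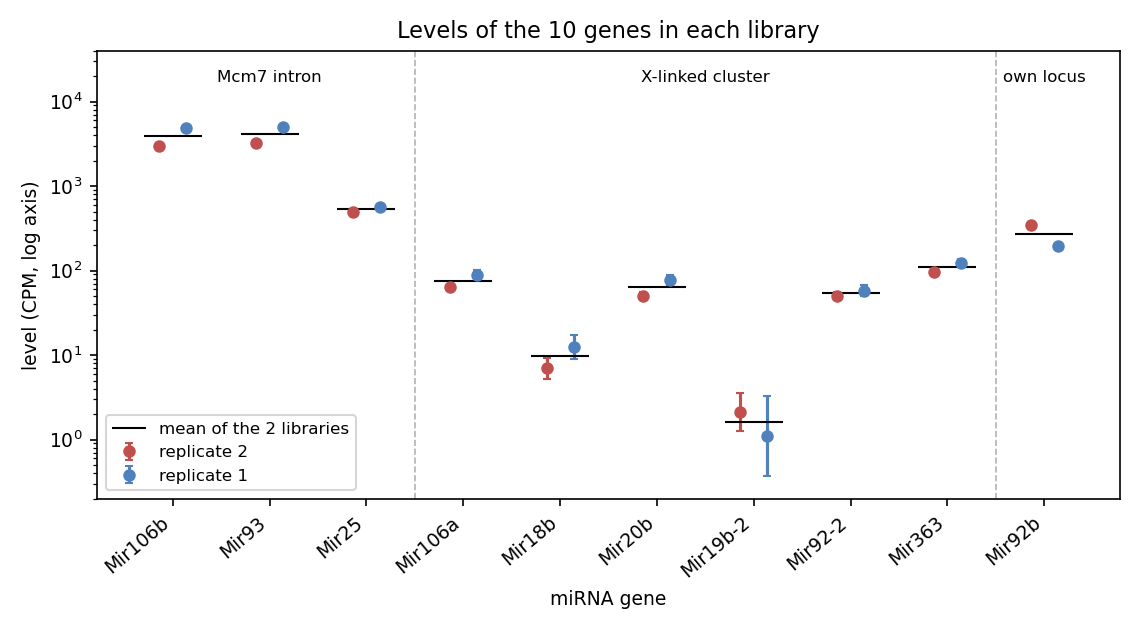
Level of each of the 10 genes in CPM on a log axis, with replicate 2 left of replicate 1, Wilson 95% counting intervals as bars and the mean of the 2 libraries as a line. Mir93 and Mir106b average 4162 and 3946 CPM and the X-linked genes 110 CPM or less. Mir92b is the gene of the 10 above 3 counts in each library whose replicate 2 value is the higher. Levels of Mir92-2 and Mir19b-2 leave out their multiply placed reads.

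The 2 copies that share their whole mature sequence with the miR-17~92 cluster could be counted only in part. In the layout of these files a read with several positions in the genome is counted for no gene, and such reads were 28.5% of the whole library in replicate 2 and 29.8% in replicate 1. The mature miR-92a-3p is present in the hairpins of Mir92-2 and Mir92-1, and miR-19b-3p in those of Mir19b-2 and Mir19b-1. The hairpins are printed with the stretch that both copies share in capitals.
Mir92-2: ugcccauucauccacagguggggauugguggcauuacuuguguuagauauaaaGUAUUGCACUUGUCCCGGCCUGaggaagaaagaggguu
Mir92-1: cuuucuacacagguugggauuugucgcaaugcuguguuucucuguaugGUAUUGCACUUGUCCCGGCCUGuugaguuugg
Mir19b-2: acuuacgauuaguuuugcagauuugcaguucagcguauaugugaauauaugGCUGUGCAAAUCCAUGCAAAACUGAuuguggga
Mir19b-1: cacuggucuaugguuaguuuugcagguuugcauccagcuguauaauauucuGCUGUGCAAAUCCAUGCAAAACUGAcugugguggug
The shared stretch is 22 bases in Mir92-2 and Mir92-1 and ends with the last base of the mature miRNA. It is 25 bases in Mir19b-2 and Mir19b-1 and ends there too. A read that runs 1 templated base past that end, or a read of the other arm, differs between the copies, and a read of the annotated mature sequence does not. The other 8 genes share at most 17 bases with any other RefSeq hairpin, the longest being that of Mir18b with Mir18. Positions outside miRNA hairpins were not examined.

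Within the Mcm7 intron the counts were unequal although the 3 genes lie in a single intron. Mir93 held 48.4% of the cluster's counts in replicate 2, with a Wilson 95% interval of 48.0 to 48.9, and 48.0% in replicate 1 (47.4 to 48.6). Mir106b held 44.2% in replicate 2 (43.8 to 44.7) and 46.6% in replicate 1 (46.0 to 47.2). Mir25 held 7.34% in replicate 2 (7.10 to 7.59) and 5.43% in replicate 1 (5.17 to 5.70). The share of Mir25 was higher in replicate 2, with intervals that do not overlap, and that of Mir106b was lower. Counts of Mir93 were 6.59 times those of Mir25 in replicate 2 (6.36 to 6.84) and 8.84 times in replicate 1 (8.39 to 9.32). These ratios do not depend on how the libraries are scaled, and their intervals cover counting error only.

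In the X-linked cluster Mir363, the last gene in the order of transcription, held the largest share in both libraries, with 35.9% in replicate 2 (33.7 to 38.2) and 34.3% in replicate 1 (31.4 to 37.4). Mir106a, the first gene, held 23.6% and 24.6% in replicates 2 and 1. Mir20b held 18.5% in replicate 2 and 21.3% in replicate 1, and Mir92-2 held 18.5% and 16.0%. Mir18b and Mir19b-2 held 2.59% and 0.789% in replicate 2, and 3.46% and 0.305% in replicate 1. For each of the 6 genes the intervals of the 2 libraries overlap. The shares of Mir92-2 and Mir19b-2 leave out their multiply placed reads, so the place of Mir363 holds for uniquely placed reads alone.

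**Figure D2:**
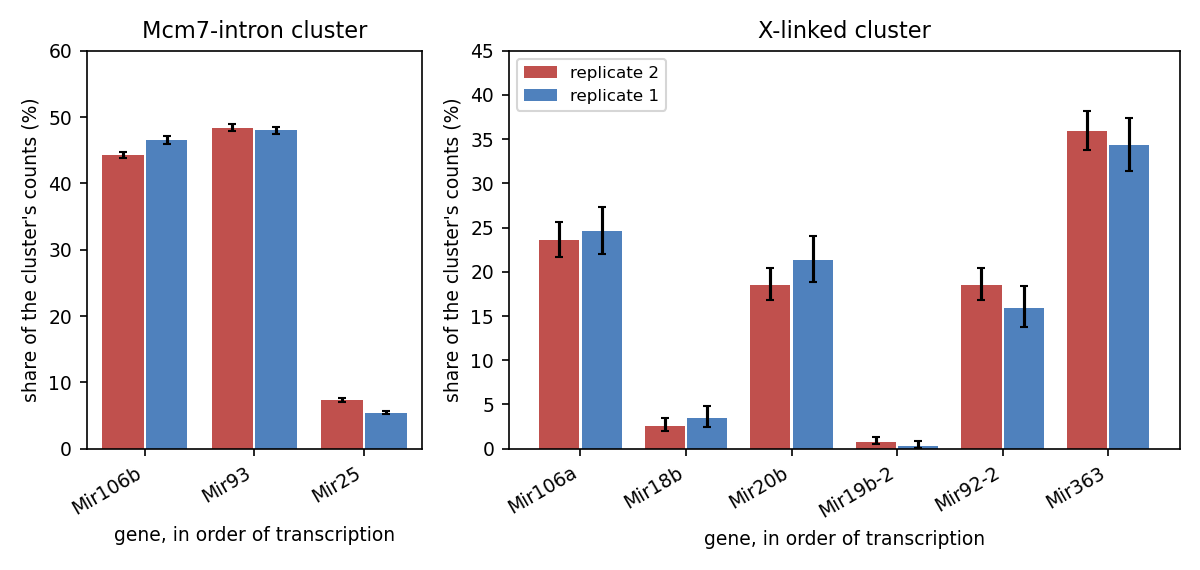
Share of each gene in the counts of its cluster, in percent, for the Mcm7-intron cluster at left and the X-linked cluster at right, with replicate 2 left of replicate 1 and Wilson 95% intervals as bars. Mir25 is the smallest part of its cluster, at 7.34% and 5.43%, and Mir363 the largest of its own, at 35.9% and 34.3%.

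Summed, the Mcm7-intron cluster had 6726 CPM in replicate 2 and 10557 CPM in replicate 1 (mean 8641 ± 2708 CPM), and the X-linked cluster had 269 and 362 CPM (mean 315 ± 65.8 CPM). The Mcm7 cluster was thus 25.0 times the X-linked cluster in replicate 2 and 29.2 times in replicate 1. The miR-17~92 cluster, for comparison, had 17132 CPM in replicate 2 and 25597 CPM in replicate 1. That is 2.55 times the Mcm7 cluster in replicate 2 and 2.42 times in replicate 1. The sums of the X-linked and miR-17~92 clusters leave out multiply placed reads of miR-92a-3p and miR-19b-3p. How far those reads would move the folds was not examined.

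In uniquely placed reads Mir106a, Mir18b, Mir20b and Mir92-2 stood at a small share of their miR-17~92 counterparts. For these 4 genes that share differed between the libraries by less than the counting error. Mir363 has no counterpart in the miR-17~92 cluster. Base differences below are given from the miR-17~92 member to the X-linked one, counted from 1 at the 5′ end. Mature miR-106a-5p differs from miR-17-5p by U10A alone, and Mir106a had 0.618% of the counts of Mir17 in replicate 2 (interval 0.561 to 0.680) and 0.587% in replicate 1 (0.518 to 0.666). Mature miR-18b-5p differs from miR-18a-5p by A18U and A20U, and Mir18b had 0.297% of the counts of Mir18 in replicate 2 (0.222 to 0.396) and 0.323% in replicate 1 (0.231 to 0.451). Mature miR-20b-5p differs from miR-20a-5p by U1C and U10C, and Mir20b had 1.66% of the counts of Mir20a in replicate 2 (1.49 to 1.85) and 1.58% in replicate 1 (1.38 to 1.81). Mir92-2 had 3.39% of the counts of Mir92-1 in replicate 2 (3.04 to 3.79) and 3.52% in replicate 1 (2.999 to 4.122). The mature sequence of these 2 genes is the same, so reads of it are missing from both counts. Their share therefore does not measure the relative output of the copies, and the same holds for Mir19b-2 and Mir19b-1. In these 4 pairs the intervals of the 2 libraries overlap. Mir19b-2 had 28.6% of the counts of Mir19b-1 in replicate 2 (15.9 to 51.3) and 9.09% in replicate 1 (2.96 to 27.9). These shares were larger, but they rest on 14 and 3 counts of Mir19b-2, and their wide intervals overlap too.

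How many reads of Mir17 with a misread base were placed at Mir106a was not tested. In the RefSeq table Mir93 is 3 edits from its nearest other mature miRNA, Mir106b 5, Mir25 4, Mir92b 3 and Mir363 7. These edits also count differences in annotated length. Over the bases that both hold, miR-106b-5p differs from miR-17-5p at 3, and miR-92b-3p and miR-25-3p differ from miR-92a-3p at 2 and 3. Misplaced reads were not examined for any of them.

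**Figure D3:**
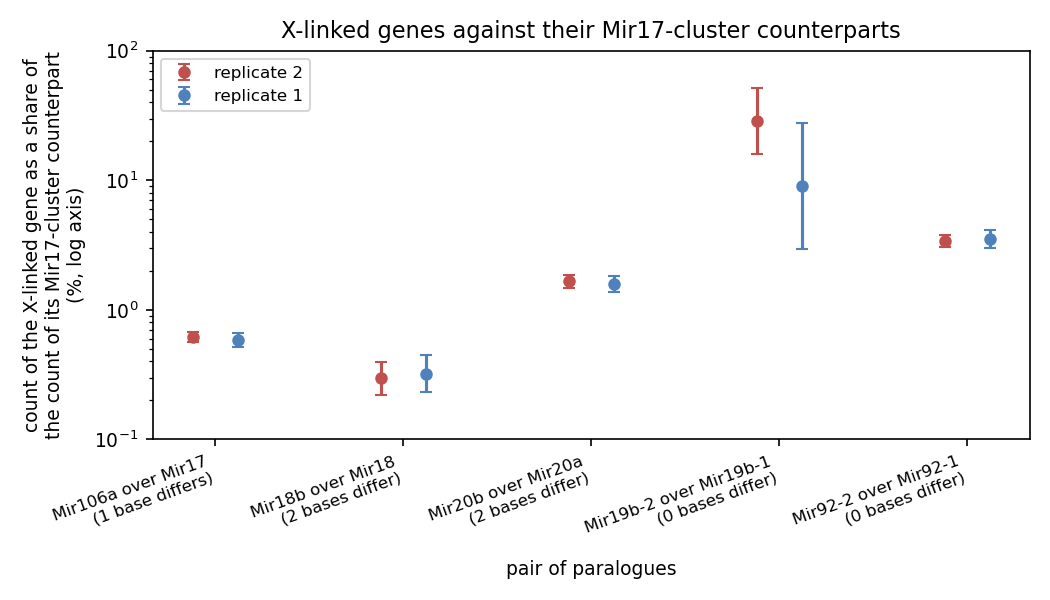
Count of the 5 X-linked genes that have a miR-17~92 counterpart, as a percentage of the count of that counterpart, on a log axis, with replicate 2 left of replicate 1, 95% counting intervals as bars and the number of bases that differ between the mature sequences under each pair. Except for Mir19b-2, which rests on 14 and 3 counts, the pairs lie between 0.297% and 3.52%. The intervals of the 2 libraries overlap in each of the 5 pairs. The pairs of Mir92-2 and Mir19b-2 share their whole mature sequence and compare uniquely placed reads alone.

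Grouped by seed, the 10 genes gave the smaller part of the counts with the miR-17 seed and of those with the miR-92 seed. Over the 7 genes of the RefSeq table with the seed AAAGUGC, Mir93, Mir106b, Mir106a and Mir20b held 32.3% of the counts in replicate 2 (interval 32.1 to 32.6) and 33.6% in replicate 1 (33.3 to 33.9), with the rest from Mir17 and Mir20a and none from Mir6383. Over the 7 genes with the seed AUUGCAC, Mir25, Mir92b, Mir363 and Mir92-2 held 37.98% in replicate 2 (37.3 to 38.7) and 34.3% in replicate 1 (33.2 to 35.4), with the rest from Mir92-1 and Mir32 and none from Mir367. The group total was 19628 CPM in replicate 2 and 30188 CPM in replicate 1 for AAAGUGC, and 2601 and 2769 CPM for AUUGCAC. Multiply placed reads of miR-92a-3p are missing from the second total. For AAGGUGC, Mir18b held 0.296% in replicate 2 and 0.322% in replicate 1, the rest being Mir18.

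Between the replicates Mir106b, Mir93, Mir106a and Mir20b were lower in replicate 2 and Mir92b was higher, and calls of this kind were common among all tested genes. Differences are log2 ratios of replicate 2 over replicate 1, scaled by TMM, a normalization that centres the bulk of genes, and tested by an exact binomial test of the 2 counts with Benjamini-Hochberg adjustment over the 372 genes with a mean of at least 10 counts. This test compares 2 libraries and sees counting error only, so its p-values do not speak of the tissue. Of the 10 genes 9 entered it, Mir19b-2 being too low. It called 5 of them lower in replicate 2, against 24.7% of all tested genes, and 1 higher, against 27.4% of all tested genes. Their median log2 ratio was -0.36, against -0.017 over all tested genes. With total counts in place of TMM, 7 were called lower, against 35.8% of all tested genes, and 1 higher, against 17.2%, and the median of all tested genes was -0.14. With DESeq2 size factors 4 were called lower and 1 higher, against 78 lower and 113 higher of all 372 tested genes. With TMM over all gene rows 4 were called lower and 1 higher, against 80 and 108 of the 372. With no count filter 4 were called lower and 1 higher, against 86 and 96 of the 717 detected genes.

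The 2 abundant genes of the Mcm7 intron were both lower in replicate 2. The log2 ratio was -0.60 for Mir106b (counting SE 0.016, exact binomial test, adjusted p = 1.47e-289) and -0.51 for Mir93 (counting SE 0.016, exact binomial test, adjusted p = 8.83e-224). Mir25 of the same intron had -0.089 (counting SE 0.044, exact binomial test, adjusted p = 0.0857). With total counts Mir25 was called lower, at -0.21 (exact binomial test, adjusted p = 5.67e-06). The ratio of Mir106b to Mir25 differed between the libraries by -0.51 (log2, counting SE 0.047) whatever the scaling. The central 90% of all tested genes lay between -0.73 and 0.75, and Mir106b, Mir93 and Mir25 lie inside it.

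In the X-linked cluster Mir20b at -0.51 (counting SE 0.13), Mir106a at -0.36 (counting SE 0.12) and Mir363 at -0.24 (counting SE 0.097) were called lower by the exact binomial test, with adjusted p of 0.000239, 0.00503 and 0.0309. The call of Mir363 was lost with DESeq2 size factors, at -0.18 (adjusted p = 0.113). Mir92-2 at -0.089 and Mir18b at -0.72 were not called (exact binomial test, adjusted p = 0.672 and 0.0552). Mir18b rests on 46 and 34 counts.

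Seen by seed rather than by locus, the genes with the miR-17 seed had log2 ratios from -0.60 to -0.36, and those with the miR-92 seed other than Mir92b from -0.24 to -0.089. No test of a difference between seeds was made, and Mir363, which carries the miR-92 seed, was itself called lower. In the miR-17~92 cluster Mir17 at -0.44, Mir20a at -0.57 and Mir18, of the seed AAGGUGC, at -0.60 were called lower. Mir92-1 at -0.036, Mir19a at -0.015 and Mir19b-1 at -0.59 were not called (exact binomial test, adjusted p = 0.252, 0.995 and 0.124), the last resting on 49 and 33 counts. Of the 7 tested genes outside the 10 that share one of these seeds, 3 were called lower, against 24.7% of all tested genes, and 0 higher, against 27.4%. With total counts 5 of them were called lower, against 35.8% of all tested genes, among them Mir92-1 at -0.16 and Mir32 at -0.29, and of the 10 genes Mir25 and Mir363 with the miR-92 seed were called lower too. Summed over all genes of a seed, the ratio was -0.50 (counting SE 0.0064) for AAAGUGC and 0.035 (counting SE 0.020) for AUUGCAC. The second includes Mir92b, the 1 tested gene of that seed above 0, and turned to -0.090 with total counts. GC content of the mature sequences runs from 42.9% to 52.2% in the members of the first group and from 40.9% to 63.6% in those of the second. Its part in the ratios was not tested.

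Mir92b was called higher in replicate 2, while the 5 other tested genes with its seed lay between -0.24 and -0.036. With DESeq2 size factors the last of these, Mir92-1, turned to 0.021. The log2 ratio of Mir92b was 0.96 (counting SE 0.070, exact binomial test, adjusted p = 1.39e-48), place 13 of 372 from the top and outside the central 90% of tested genes. With total counts it was 0.84. Counts of Mir92b were 0.703 of those of Mir25 in replicate 2 (interval 0.667 to 0.742) and 0.339 in replicate 1 (0.307 to 0.374). Against Mir92-1, with the same seed, they were 0.237 in replicate 2 (0.226 to 0.248) and 0.118 in replicate 1 (0.108 to 0.129).

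Among the 100 other genes that averaged 1000 CPM or more, the 3 with the nearest log2 ratio to Mir92b were Mir449a of multiciliated cells at 1.02, Mir203 of the epidermis at 0.88 and Mirlet7f-2 of the let-7 family at 0.67. For Mir93 they were Mir107 at -0.50, Mir20a at -0.57 and Mir17 at -0.44. Likeness here is the distance between 2 single ratios over 2 libraries.

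**Figure D4:**
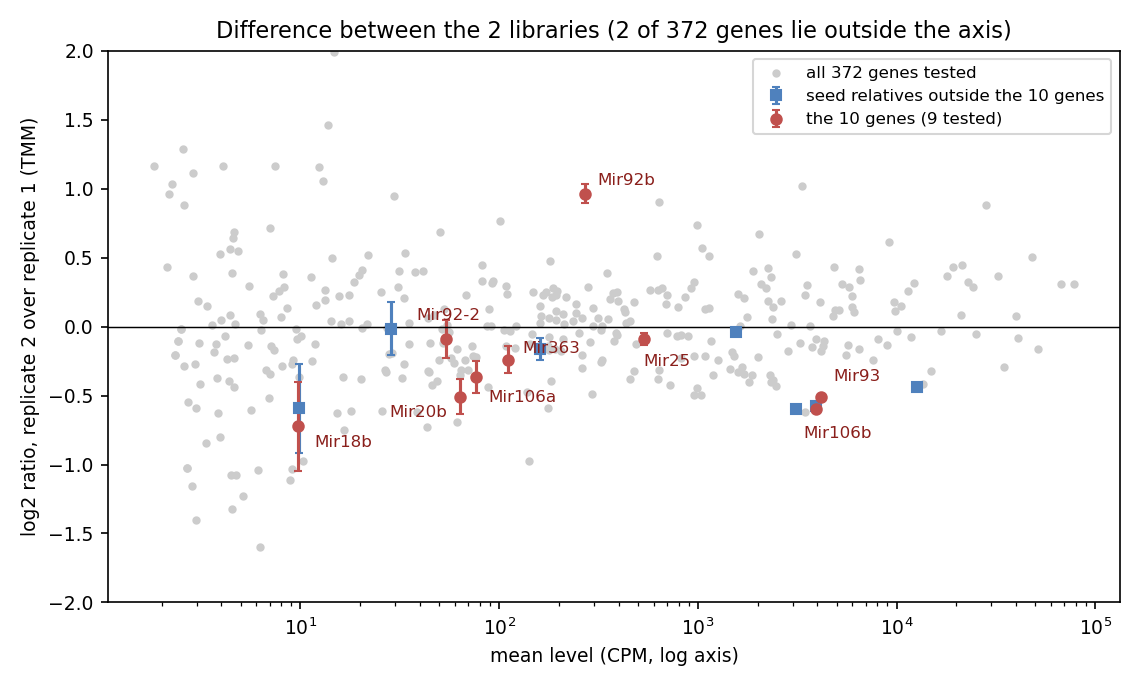
Log2 ratio of replicate 2 over replicate 1 (TMM) against mean level in CPM on a log axis for the 372 tested genes (grey, 2 of them beyond the axis limits of ± 2), the 9 tested genes of the 10 (red circles) and their seed relatives (blue squares), with counting SE as bars. Mir106b and Mir93 lie at -0.60 and -0.51, Mir25 and Mir92-2 at -0.089, and Mir92b at 0.96.

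Markers of several cell types also differed between the libraries. Their sums are given in CPM, scaled by total counts. Their calls are those with TMM, where 27.4% of all tested genes were called higher in replicate 2 and 24.7% lower. Where calls with total counts are added, the shares of all tested genes were 17.2% higher and 35.8% lower. The epithelial list summed to 67435 CPM in replicate 2 and 52450 CPM in replicate 1, with 5 of 7 genes called higher and 1 lower, or 4 higher and 2 lower with total counts. Most of that difference was Mir203, since the other 6 genes summed to 31836 CPM in replicate 2 and 31356 CPM in replicate 1. Mesenchymal miRNAs summed to 12119 CPM in replicate 2 and 17643 CPM in replicate 1, with 2 of 4 called lower, or 3 with total counts. Most of these sums was Mir214, at 11066 CPM in replicate 2 and 16135 CPM in replicate 1. Mir199a-1 went the other way with TMM, at a log2 ratio of 0.21, and was not called.

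The eye and choroid list summed to 915 CPM in replicate 2 and 559 CPM in replicate 1, with 2 of 3 called higher under either scaling. The erythroid list summed to 1406 CPM in replicate 2 and 1093 CPM in replicate 1, with 2 of 3 called higher, or 1 with total counts. The neural list summed to 1106 CPM in replicate 2 and 1348 CPM in replicate 1, with 1 of 7 tested called higher and 1 lower, or 0 higher and 2 lower with total counts. Of its 11 genes with a row, Mir9-2 and the 3 copies of Mir124a had 0 counts in both libraries, and since copies of one mature sequence lose multiply placed reads, this is no sign of absence.

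The cartilage list summed to 41703 CPM in replicate 2 and 43454 CPM in replicate 1, and its direction turned with the scaling: the log2 ratio of the sums was 0.066 with TMM, with 1 gene called higher and 1 lower, and -0.059 with total counts, with 0 higher and 2 lower. The skeletal muscle list summed to 13351 CPM in replicate 2 and 11714 CPM in replicate 1, with 1 of 2 tested called higher under either scaling. Most of these sums was Mir206, at 13094 CPM in replicate 2 and 11447 CPM in replicate 1, while Mir133b had 254 and 265 CPM. The part of these cell types in the ratios of the 10 genes was not tested, and the day of collection cannot be told apart from the replicate.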

How the data were processed

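Small RNA libraries of 2 biological replicates were analysed. The authors deposited raw read counts per miRNA gene, 1 library per file, aligned to mm10 and counted over GENCODE M4, per the metadata text deposited beside them. The aligner was not given in the sources used here, nor was adapter trimming. The files have no column names. From the values, the columns are laid out as in STAR gene counts, and the gene-strand column was used. The 4 summary rows were left out of totals. Of 1973 identifiers 1894 were named through GENCODE M21.

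CPM used the total of gene-strand gene rows. With 1 group there is no contrast for a model across samples. The libraries were compared gene by gene with a two-sided exact binomial test wherever the mean reached 10 counts, with TMM factors from those genes (edgeR 4.0.16), Benjamini-Hochberg adjustment at 0.05 and a prior of 0.5 counts in log2 ratios. The test was tried on simulated counts that hold counting error only, so the trial does not show how it behaves where libraries differ by more. SciPy 1.17.1 and DESeq2 1.42.0 were also used. Intervals cover counting error only, since molecular identifiers are not described. The members and lists were chosen with earlier results of these data known. Named genes are the 10 members, a fixed list of seed relatives and marker lists, and the 3 genes nearest to Mir93 and to Mir92b in log2 ratio. Mir6383 was named after the seed search.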

Additional observations from a re-analysis of the deposited data

How the results depend on the processing

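Scaled to a total that also holds multiply placed reads, the mean sum of the Mcm7-intron cluster was 5399.9 CPM and that of the X-linked cluster 197 CPM, both below the values above by more than their SD, because the total is larger. Mir92b had 170.2 CPM on that scale, a change within its SD, and every other CPM level falls by a like factor. With total counts in place of TMM, 64 genes were called higher in replicate 2, and Mir25 and Mir18b were called lower (adjusted p = 5.67e-06 and 0.0261, exact binomial test). The call of Mir363 was lost with DESeq2 size factors, with no count filter (adjusted p = 0.0587) and with TMM over all gene rows (adjusted p = 0.0990), the last chosen after seeing the data. Under these settings, a filter at 100 counts, both strands together and a prior of 5 counts, no tested gene of the 10 changed direction. Leaving out either replicate moved each level and share by less than its SD, which with 2 values it always does. The ratios between replicates cannot be checked that way. Depth limits Mir18b and Mir19b-2, at 46 and 34 and at 14 and 3 counts.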
